A study of Mus musculus with 24 samples.

Results

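The genes described here are 10 that mammals use to live through a fast: Pck1, G6pc, Fbp1 and Got1, which carry carbon into new glucose, Pdk4, Cpt1a and Angptl4, which spare glucose and release or burn fat, and Ppara, Ppargc1a and Irs2, which pass on the hormonal and nutrient signals. They were taken by symbol from the 24357 gene entries that carry a symbol, and each of the 10 had a single entry. Repair of cisplatin adducts in them was read from XR-seq libraries, in which the short pieces of DNA released by nucleotide excision repair are sequenced. All mice were wild-type C57BL/6J females, aged 6 months, on a cycle of 12 h light to 12 h dark, and all had received 10 mg/kg of cisplatin into the peritoneum. No untreated group was analysed here. Kidney and liver were taken 2 h after the injection at 6 zeitgeber times (ZT, counted in hours from lights on), namely 0, 4, 8, 12, 16 and 20. Each tissue and time had 2 libraries, hence 12 libraries of kidney and 12 of liver. The labels do not tell if the pair of libraries at a time stems from different animals, so p-values measure the spread between libraries, which may be technical in part.

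During a fast, glucagon and glucocorticoids raise cyclic AMP and active glucocorticoid receptor in liver and kidney cortex, the organs that export glucose, while insulin falls. CREB and FOXO1, with the coactivator PGC-1α (the product of Ppargc1a), then turn on Pck1 and G6pc, and fatty acids from fat tissue activate PPARα, whose targets include Pdk4, Angptl4 and Cpt1a. Mice eat mostly in the dark, so the light phase is their daily fast. Excision repair bears on such genes because RNA polymerase stalled at an adduct recruits the repair machinery, so that the transcribed strand (TS) of an active gene is repaired faster than the non-transcribed strand (NTS). TS reads thus rise with transcription, although they also depend on how many adducts were formed and were left.

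Kidney libraries held 8718055 to 33716763 reads in total, and liver libraries 12917058 to 28244795. TS reads in genes numbered 6334958 to 24236776 and 9538537 to 21050661, and NTS reads 975978 to 3948748 and 1333813 to 2940892. The tissue labels were checked with marker genes, as summed TS RPKM (defined with the levels of the 10 genes). The 8 hepatocyte markers, Alb and Apoa1 among them, summed to between 2.95 and 4.94 in kidney and to between 18.7 and 27.8 in liver, and the 8 tubule markers, Slc34a1 and Umod among them, to between 9.19 and 11.1 and between 0.555 and 1.14. No marker was at 0 in either tissue. Liver ZT0 replicate 1 stood apart in these sums, with 18.69 for hepatocyte markers beside 24.67 to 27.78 in the other 11 liver libraries, and 6.055 for 6 endothelial markers beside 2.085 to 3.196. Counts of genes called rhythmic on the TS in liver are therefore given with and without it. The time labels were checked with clock genes. Npas2 peaked at 22.5 h in kidney and 23.2 h in liver, Arntl at 22.1 and 21.9 h, Nr1d1 at 6.68 and 7.25 h, and Dbp at 10.16 and 11.04 h, and all 4 were called rhythmic in both tissues by edgeR's quasi-likelihood test. Libraries of one tissue are a mixture of cells, and fewer cells of a type and less repair per cell cannot be told apart in them.

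By the authors' mm10 coordinates the entries range from short to long. Pck1 is on chromosome 2 (173153073 to 173159253, plus strand, 6.2 kb) and G6pc on chromosome 11 (101367716 to 101377903, plus strand, 10.2 kb). Angptl4 is on chromosome 17 (33774900 to 33781575, minus strand, 6.7 kb), Pdk4 on chromosome 6 (5483351 to 5496278, minus strand, 12.9 kb) and Irs2 on chromosome 8 (10986964 to 11008430, minus strand, 21.5 kb). Fbp1 is on chromosome 13 (62864753 to 62888282, minus strand, 23.5 kb), Got1 on chromosome 19 (43499753 to 43524605, minus strand, 24.9 kb) and Cpt1a on the same chromosome (3323301 to 3385733, plus strand, 62.4 kb). Ppara is on chromosome 15 (85735564 to 85806851, plus strand, 71.3 kb) and Ppargc1a on chromosome 5 (51454249 to 51567725, minus strand, 113.5 kb). All are protein-coding genes, and reads were counted over the whole entry, introns included. The entry of Ppargc1a ends inside the longer span that RefSeq gives for the gene. Only Irs2 overlaps another entry, by 581 bases with 9530052E02Rik on the opposite strand, where TS reads of one are NTS reads of the other. The median entry with a symbol was 14.2 kb long, so that Pck1, Angptl4, G6pc and Pdk4 are shorter than the median gene and the other 6 longer.

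Promoters of 9 of the 10 genes matched a RefSeq window (GRCm38.p6), and Angptl4 had no match in the table used. Each window of 300 bases around the start was searched on both strands for the letters CACGTG (an E-box, bound by the clock proteins CLOCK and BMAL1), TGACGTCA and its shorter form TGACG (the cyclic AMP response element of CREB), TTATGTAA (a D-box), TGTTTAC (bound by FOXO and FOXA factors), the PPAR direct repeat and the ROR and REV-ERB element. TGACG, which also lies inside TGACGTCA, was found in Pck1, Ppargc1a and Ppara, and it is in 20.91% of 32544 windows. CACGTG was found in Irs2, and it is in 7.17% of windows. No other of these letters was in the 9 windows; in all windows their shares are 1.8% for TGACGTCA, 0.93% for TTATGTAA, 3.66% for TGTTTAC, 0.04% for the PPAR repeat and 0.22% for the ROR and REV-ERB element. The 250 bases before the start are shown for Pck1, whose element at -90 is a textbook case of control by cyclic AMP, for Irs2, whose match lies at -44, and for Ppargc1a, whose match lies at -49. The stretches are chr2:173152823-173153072 (plus strand), chr8:11008930-11009179 (minus strand) and chr5:51567726-51567975 (minus strand), written 5′ to 3′ along the coding strand, with the matched letters in capitals (CGTCA is TGACG read on the template strand).
Pck1: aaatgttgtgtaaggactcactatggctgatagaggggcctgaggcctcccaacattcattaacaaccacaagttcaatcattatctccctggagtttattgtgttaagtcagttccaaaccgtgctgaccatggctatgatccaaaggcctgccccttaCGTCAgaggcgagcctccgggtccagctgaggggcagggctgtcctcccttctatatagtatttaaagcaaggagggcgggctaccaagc
Irs2: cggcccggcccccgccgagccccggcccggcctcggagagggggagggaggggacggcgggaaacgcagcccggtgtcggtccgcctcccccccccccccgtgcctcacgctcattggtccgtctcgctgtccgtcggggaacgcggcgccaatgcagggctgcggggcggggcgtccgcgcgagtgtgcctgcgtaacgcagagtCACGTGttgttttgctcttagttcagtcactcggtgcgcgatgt
Ppargc1a: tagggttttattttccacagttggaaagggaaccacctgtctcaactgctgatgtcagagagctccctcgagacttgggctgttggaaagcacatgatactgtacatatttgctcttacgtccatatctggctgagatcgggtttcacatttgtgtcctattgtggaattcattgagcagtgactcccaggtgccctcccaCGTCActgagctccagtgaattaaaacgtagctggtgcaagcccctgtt
In Ppara the match lay at -222. A match of this kind describes the letters only.

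Levels are given as TS RPKM, reads per kilobase of the entry scaled to the TS reads of the library, with the TMM factors of the tissue. In kidney the mean over 12 libraries was highest for Irs2 (5.55 ± 0.435, SD, n = 12), the adaptor that links the insulin receptor to phosphoinositide kinases, and lowest for Ppargc1a (1.42 ± 0.0834). Between them came Cpt1a, Pck1, Got1, Angptl4, Pdk4, Fbp1, G6pc and Ppara in falling order. The ranges of neighbours in that order overlapped except for Ppara, with 1.73 to 2.60, and Ppargc1a, with 1.29 to 1.56. In liver Pck1 stood first (5.69 ± 1.295, SD, n = 12) and Ppargc1a again last (0.835 ± 0.110), with Angptl4, Irs2, Cpt1a, Fbp1, Ppara, Got1, G6pc and Pdk4 between. There too the only neighbours without overlap were the lowest, Pdk4 (2.15 to 3.25) and Ppargc1a (0.586 to 0.981). The depth behind these levels ran in TS from 167 reads of Angptl4 in 1 kidney library to 6715 of Cpt1a in another, and the NTS held from 12 reads (G6pc, liver) to 612 (Ppara, liver).

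Over the day, 3 of the 10 genes were called rhythmic in kidney on the TS, all with a peak in the later light phase: Angptl4, an inhibitor of lipoprotein lipase, Pdk4, the kinase that shuts pyruvate dehydrogenase, and Pck1, the enzyme that makes phosphoenolpyruvate. Their fitted peaks lay between 6.50 and 7.66 h. Of 19277 genes tested, 15% were called rhythmic and 4.19% were called with a peak between 4 and 12 h, so that 3 of 10 stand beside a background share of 4.19%. That share was 8.58% with replicate number as a block and 7.27% with the size of the whole library as the scale, and without 1 library it ran from 1.07% (ZT8 replicate 2 left out) to 6.58% (ZT0 replicate 2). The median amplitude of the 10 genes was 0.113 and that of all genes tested 0.135, amplitude being the distance from the mean to the peak of a 24 h cosine on the log2 scale. The test was edgeR's quasi-likelihood F test with Benjamini-Hochberg adjustment over all genes tested and a threshold of 0.05. With replicate number as a block the share of all genes called was 25.4%, and Irs2 was called as well (amplitude 0.12, adjusted p = 0.037).

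**Figure D1:**
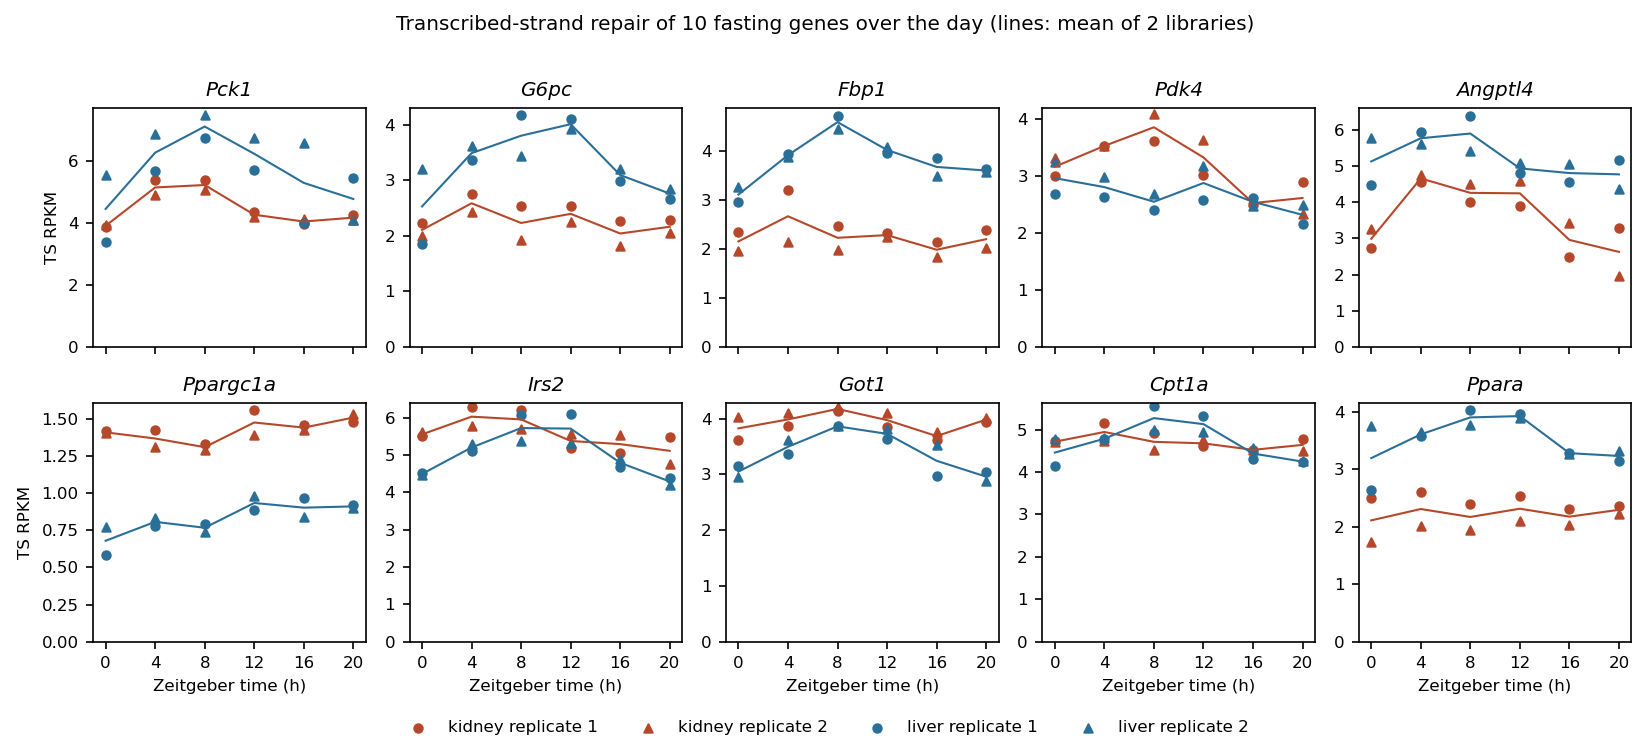
TS RPKM (vertical axis, from 0) of each of the 10 genes against zeitgeber time in hours, with a point for each library (circles for replicate 1, triangles for replicate 2) and a line through the mean of the 2 libraries, red for kidney and blue for liver. Kidney Pdk4 falls from a mean of 3.85 at ZT8 to 2.52 at ZT16, while liver Irs2 rises from 4.49 at ZT0 to 5.72 at ZT8.

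Angptl4 showed the widest swing in kidney. Its TS RPKM in the 2 libraries of each time was 2.73 and 3.25 at ZT0, 4.56 and 4.76 at ZT4, 4.00 and 4.51 at ZT8, 3.90 and 4.59 at ZT12, 2.49 and 3.42 at ZT16, and 3.28 and 1.98 at ZT20. The 6 libraries of ZT4, ZT8 and ZT12 were all higher than the 6 of ZT16, ZT20 and ZT0, while within ZT16 and ZT20 the libraries lay far apart. The fitted amplitude was 0.44 ± 0.08 (SE), a 1.85-fold change from trough to peak (1.47 to 2.33 at 2 SE either way), with the peak at 7.66 h and an adjusted p of 0.00649 (edgeR, n = 12). Fat cell markers, taken as a sum, moved with it in kidney, with Plin4 the largest part (mean TS RPKM 1.11). Plin4 had fewer TS than NTS reads there (ratio of summed reads 0.247). The summed TS RPKM of 7 adipocyte markers ranged from 2.23 to 3.44 over kidney libraries, with time means of 2.73 at ZT0, 3.10 at ZT4, 3.16 at ZT8, 3.28 at ZT12, 2.71 at ZT16 and 2.33 at ZT20. Of the 7, Cidec (0.50 ± 0.10, peak 6.19 h) and Plin1 (0.38 ± 0.10, peak 7.79 h) were called, Adipoq and Lep averaged 17.0 and 14.0 TS reads per library, and none was at 0. Among all genes tested in kidney 15% were called, and 4.19% were called with a peak between 4 and 12 h. Of other markers in kidney, 3 of 6 endothelial genes were called, all with a peak in that window (summed TS RPKM 2.35 to 3.83). So were 2 of 8 hepatocyte genes, 1 of 8 tubule genes and 0 of 6 immune genes, whatever their peak, and again none was at 0. The part of these cell types in the rhythms of kidney was not tested.

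Pdk4 in kidney gave 3.01 and 3.32 at ZT0, 3.53 in both libraries at ZT4, 3.62 and 4.09 at ZT8, 3.02 and 3.63 at ZT12, 2.50 and 2.54 at ZT16, and 2.90 and 2.33 at ZT20 (TS RPKM). Every library from ZT0 to ZT12 lay above every library of ZT16 and ZT20. The amplitude was 0.31 ± 0.05, a 1.54-fold change from trough to peak (1.34 to 1.77), with the peak at 6.50 h and an adjusted p of 0.0024 (edgeR), the lowest of the 10 genes in kidney.

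Pck1 in kidney stood at 3.88 and 3.94 at ZT0, 5.40 and 4.90 at ZT4, 5.40 and 5.06 at ZT8, 4.34 and 4.20 at ZT12, 3.97 and 4.14 at ZT16, and 4.26 and 4.09 at ZT20 (TS RPKM). Only the 4 libraries of ZT4 and ZT8 were high, and the other 8 lay within 3.88 to 4.34. The amplitude was 0.20 ± 0.05, a 1.31-fold change (1.149 to 1.496), with the peak at 6.76 h and an adjusted p of 0.0277 (edgeR). The call was lost when any of 4 libraries was left out, ZT4 replicate 2 (adjusted p = 0.0581), ZT8 replicate 1 (0.0954), ZT8 replicate 2 (0.0934) or ZT16 replicate 1 (0.053). It was also lost after correction for the trend of counts with gene length in each library (amplitude 0.13, adjusted p = 0.17, and 0.093 with the replicate block as well), whereas Pdk4 and Angptl4 stayed called there. With the authors' downsampled counts Pck1 was not called either (amplitude 0.17, adjusted p = 0.0703), and Pdk4 and Angptl4 were.

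The other 7 genes were not called in kidney. Irs2 had an amplitude of 0.12 ± 0.03 and peaked at 5.70 h (adjusted p = 0.0687, edgeR), and its libraries ran from 4.75 at ZT20 to 6.29 at ZT4. Without ZT0 replicate 1 or ZT16 replicate 2 it was called, with adjusted p-values of 0.0424 and 0.0428. G6pc, the phosphatase that releases free glucose, had 0.11 ± 0.07, and Fbp1, the bisphosphatase upstream of it, 0.13 ± 0.07. At every time both genes were higher in replicate 1 than in replicate 2 of kidney, with Fbp1 at 3.20 and 2.15 at ZT4, and at every time so was Ppara, with 2.50 and 1.73 at ZT0. Got1, which shuttles aspartate carbon between mitochondrion and cytosol (0.05 ± 0.03), Cpt1a, the gate of fatty acids into mitochondria (0.05 ± 0.03), and Ppara, the fatty acid sensor (0.02 ± 0.06), had the smallest amplitudes. With the length trend removed and the replicate block, Cpt1a passed the threshold (0.10, adjusted p = 0.0296), a setting chosen after the data were seen. The kidney TS peak of Ppargc1a was fitted at 17.9 h (0.08 ± 0.03, adjusted p = 0.186, edgeR), while 8 of the 10 genes had a fitted peak between 4 and 12 h. Of all 19277 genes tested, called or not, 8704 had a fitted peak in that window. The rhythm of Ppargc1a was not called, and peaks were not compared between genes by a test. Its means were 1.31 ± 0.0269 at ZT8 and 1.51 ± 0.0375 at ZT20 (SD, n = 2).

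**Figure D2:**
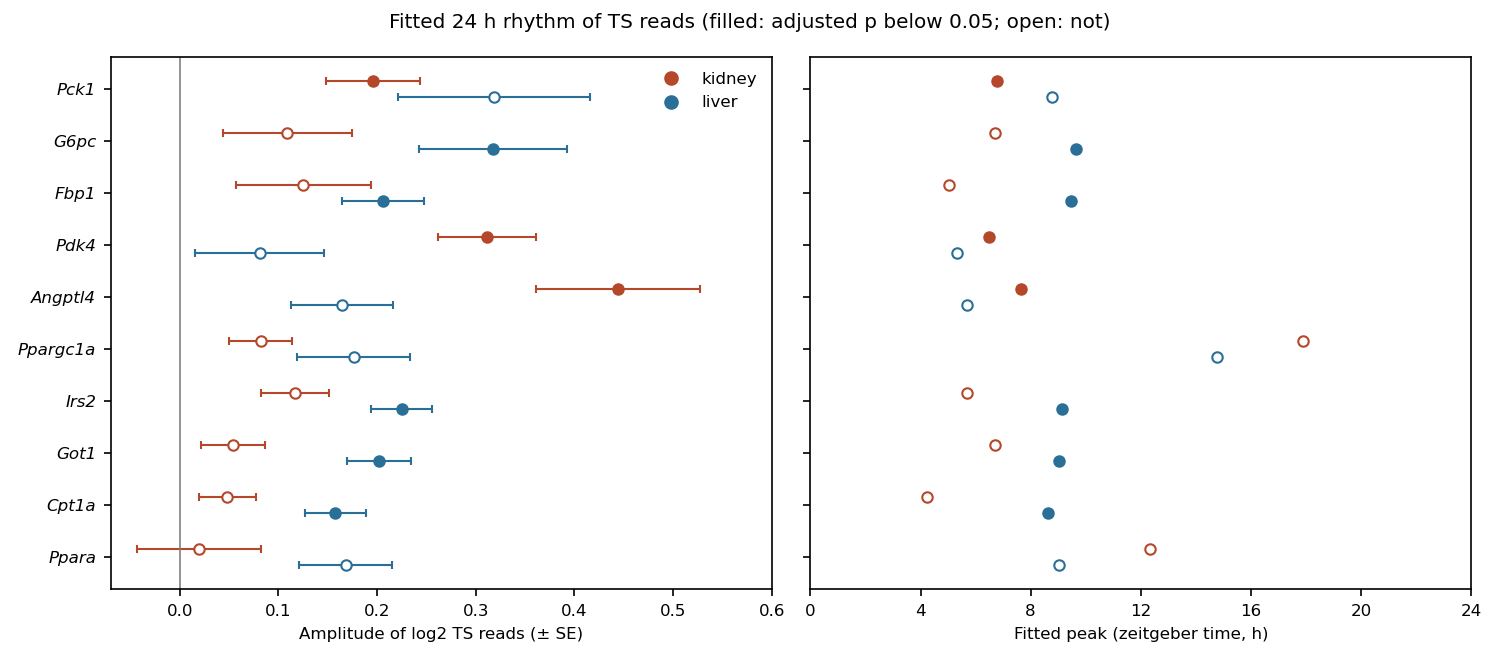
Left, fitted amplitude of log2 TS reads (horizontal axis, bars of 1 SE) and right, fitted peak in hours of zeitgeber time, for each of the 10 genes in kidney (red) and liver (blue). Filled points passed an adjusted p of 0.05, open points did not; the filled kidney points peak between 6.50 and 7.66 h and the filled liver points between 8.64 and 9.66 h.

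In liver Irs2, Got1, Cpt1a, Fbp1 and G6pc, 5 of the 10 genes, were called rhythmic on the TS, with peaks between 8.64 and 9.66 h. Of 18655 genes tested, 16.6% were called and 6.13% were called with a peak between 4 and 12 h. The median amplitude of the 10 genes was 0.189, and that of all genes tested 0.141. In these main tests none of the 10 genes was called in both tissues. The share of all genes called in both is not given here. With the replicate block Irs2 was called in kidney too. Without liver ZT0 replicate 1, Angptl4 and Pck1 were called in liver too, Pck1 only with the same genes tested. The difference between tissues was tested for each gene and none of the 10 passed, as given with the tissue comparison.

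Irs2 gave the clearest liver rhythm, with TS RPKM of 4.52 and 4.47 at ZT0, 5.09 and 5.31 at ZT4, 6.07 and 5.37 at ZT8, 6.09 and 5.32 at ZT12, 4.69 and 4.89 at ZT16, and 4.39 and 4.19 at ZT20. All 6 libraries from ZT4 to ZT12 exceeded all 6 from ZT16 to ZT0. Its amplitude was 0.22 ± 0.03, a 1.37-fold change from trough to peak (1.25 to 1.49), with the peak at 9.13 h and an adjusted p of 0.00147 (edgeR, n = 12).

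Got1 in liver had 3.16 and 2.95 at ZT0, 3.37 and 3.62 at ZT4, 3.87 and 3.86 at ZT8, 3.64 and 3.82 at ZT12, 2.96 and 3.53 at ZT16, and 3.04 and 2.88 at ZT20 (TS RPKM). The libraries of ZT8 and ZT12 were the 4 highest of the 12, and the fit gave 0.20 ± 0.03, peaking at 9.02 h (adjusted p = 0.00359, edgeR). Cpt1a went from 4.14 and 4.78 at ZT0 to 5.56 and 4.99 at ZT8 and 5.33 and 4.93 at ZT12, and back to 4.23 and 4.26 at ZT20. Its amplitude was 0.16 ± 0.03 with a peak at 8.64 h (adjusted p = 0.0112), on the deepest counts of the set, at 4438.3 TS reads per library.

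Fbp1 and G6pc, the phosphatases of gluconeogenesis, followed the same course. Fbp1 in liver rose from 2.97 and 3.27 at ZT0 to 4.73 and 4.47 at ZT8 and stood at 3.64 and 3.58 at ZT20, and its amplitude was 0.21 ± 0.04, peaking at 9.48 h (adjusted p = 0.0126, edgeR). G6pc gave 1.86 and 3.20 at ZT0, 3.37 and 3.61 at ZT4, 4.17 and 3.43 at ZT8, 4.10 and 3.92 at ZT12, 2.99 and 3.20 at ZT16, and 2.67 and 2.85 at ZT20. The first of these, ZT0 replicate 1, was far below all others. The amplitude of G6pc was 0.32 ± 0.07, a 1.55-fold change (1.26 to 1.91), with a peak at 9.66 h and an adjusted p of 0.0277. That call was lost without ZT8 replicate 1 (adjusted p = 0.081), either library of ZT12 (0.0646 and 0.0617) or either of ZT20 (0.0708 and 0.0508).

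Pck1 in liver had an amplitude as large as that of G6pc, 0.32 ± 0.10, yet did not pass (adjusted p = 0.0869, edgeR). Its libraries disagreed within times: 3.37 and 5.54 at ZT0, 5.68 and 6.86 at ZT4, 6.74 and 7.49 at ZT8, 5.72 and 6.75 at ZT12, 4.02 and 6.58 at ZT16, and 5.46 and 4.09 at ZT20. At 5 of 6 times replicate 2 was the higher. Ppara had 0.17 ± 0.05 (peak 9.04 h, adjusted p = 0.0599), Angptl4 0.16 ± 0.05 (peak 5.70 h, adjusted p = 0.0962) and Pdk4 0.08 ± 0.07 (adjusted p = 0.692). Ppargc1a, not called either, had a later fitted peak than the others, at 14.8 h (0.18 ± 0.06, adjusted p = 0.11), a difference in timing that was not tested. Its means were 0.680 ± 0.134 at ZT0 and 0.935 ± 0.0650 at ZT12 (SD, n = 2).

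The cosine fit mattered to these calls. When any difference among the 6 time means was tested in its place, none of the 10 genes passed in kidney, with the lowest adjusted p at 0.0689 for Pdk4, and only Fbp1 passed in liver (adjusted p = 0.029, edgeR). Of all genes 1.02% in kidney and 2.94% in liver passed that test. Liver ZT0 replicate 1, the library apart in its markers, held the lowest liver value of Pck1, G6pc, Fbp1, Cpt1a, Ppara and Ppargc1a. Without it 9 of the 10 genes were called in liver, all but Pdk4, while the share of all genes tested that was called rose from 16.6% to 24.4%, and that with a peak between 4 and 12 h from 6.13% to 9.02%. The 4 added were Ppara (adjusted p = 0.0205), Angptl4 (0.0258), Pck1 (0.0487) and Ppargc1a (0.0488, peak 16.1 h). When the genes to test were chosen anew from the 11 libraries, 8 were called, since Pck1 did not pass (0.0556). The 5 genes called with all 12 libraries were called in both ways, with amplitudes without it of 0.23 for Irs2, 0.21 for Got1, 0.15 for Cpt1a, 0.18 for Fbp1 and 0.25 for G6pc. The part of hepatocyte and endothelial cells in the low ZT0 values was not tested. Ppara was also called without ZT0 replicate 2 (adjusted p = 0.01). The adipocyte markers varied in liver too, the time means of their sum running from 5.68 at ZT20 to 8.02 at ZT12, with Plin1 the only one called (1.00 ± 0.20, peak 7.70 h) and Lep at 7.8 reads per library. That sum came mostly from Plin4 and Cidec, at mean TS RPKM of 3.86 and 2.02 against 0.117 for Adipoq. Both Plin4 and Cidec had fewer TS than NTS reads in liver (ratios of summed reads 0.804 and 0.609). The part of the sum in the rhythms was not tested.

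The genes whose TS profile was most like that of the member with the widest swing were found by the root mean square difference of centred log2 TS RPKM over the 6 time means. For kidney Angptl4 these were Plin1 (0.058), Mslnl (0.071), Fam212a (0.076), Snai1 (0.079) and 4933427G17Rik (0.082), among 16810 genes whose median difference was 0.341. For liver Pck1 they were Cdc6 (0.056), Sp5 (0.059), Afp (0.061), Rhbdd2 (0.062) and Pcyox1l (0.063), among 16081 genes with a median of 0.280. No test belongs to this ranking.

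On the NTS, which reads repair without the help of the stalled polymerase, 1 of 10 genes was called in kidney and none in liver. Of all genes 2.12% of 18932 in kidney (7.78% with the replicate block) and 3.76% of 18061 in liver were called. The kidney gene was Angptl4, with an amplitude of 0.46 ± 0.09 at a peak of 7.58 h (adjusted p = 0.0146, edgeR), beside 0.44 and 7.66 h on the TS. NTS reads of Angptl4 in kidney were few, 27 to 131 per library, and without ZT8 replicate 2 the adjusted p was 0.0602. In liver 2 of the 10, Pck1 and Ppara, were under 0.05 before adjustment in edgeR's test, a threshold for which no share of all genes is given here. DESeq2 called none of the 10 in liver, and in edgeR Ppara was called without liver ZT0 replicate 2 (adjusted p = 0.0367). For Pck1 in kidney the fitted NTS peak was 7.09 h (0.28 ± 0.08, adjusted p = 0.14, not called), beside 6.76 h on the TS. Whether the ratio of TS to NTS followed the time of day was tested as an interaction, and none of the 10 passed in either tissue, where 1.31% of 20243 genes in kidney and 5.63% of 20271 in liver did. No gene of the 10 had an unadjusted p under 0.05 in that test, the lowest being 0.0862 for Cpt1a in kidney and 0.0973 for Irs2 in liver, in edgeR, the only tool run there. With the replicate block, Cpt1a in kidney passed (0.26, adjusted p = 0.0217), beside 17.4% of all genes.

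TS reads outnumbered NTS reads for all 10 genes in each of the 12 kidney and 12 liver libraries. More TS reads were called for 75.6% of genes in kidney and 73.4% in liver. The fold of TS over NTS in kidney was smallest for Angptl4 (4.98) and Pck1 (5.49), then G6pc (6.88), Fbp1 (8.09), Got1 (8.92), Ppargc1a (9.56), Ppara (10.2), Irs2 (13.9) and Cpt1a (15.0), and largest for Pdk4 (16.6). In liver it ran from 7.002 for Angptl4 and 7.13 for Pck1 to 17.3 for Cpt1a and 18.6 for Irs2. The median over the 10 genes was 9.23 in kidney and 14.2 in liver, beside 4.55 and 4.72 over all genes tested. Single libraries were spread around these folds, with Pdk4 in kidney at 12.7 to 22.7 and G6pc in liver at 8.75 to 37.4. The log2 folds had standard errors of 0.07 to 0.12. When TMM was run over strand columns, which moved the median log2 fold of all genes from 2.19 to -0.07 in kidney and the share of called genes with more TS reads from 86.9% to 49.0% (from 86.2% to 50.4% in liver), Angptl4 in kidney had a log2 fold of 0.07 (adjusted p = 0.34, edgeR). The other 9 in kidney and all 10 in liver were still called with more TS reads.

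**Figure D3:**
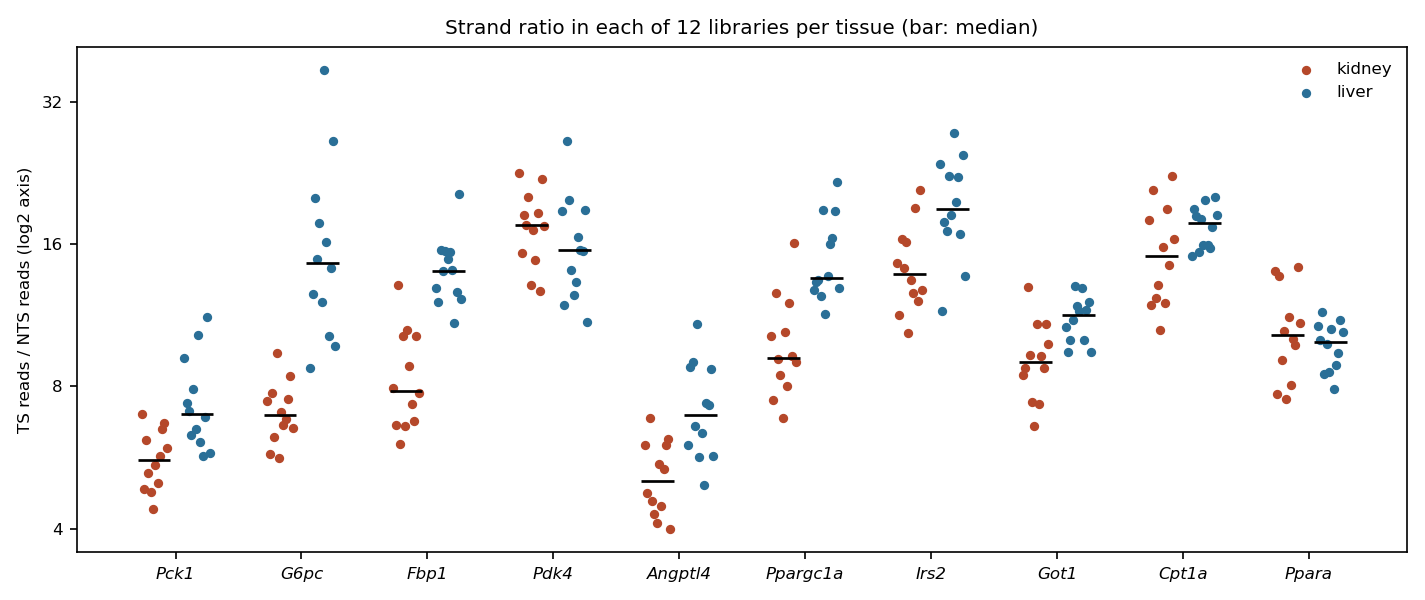
Ratio of TS to NTS reads (vertical log2 axis) for the 10 genes, with a point for each of 12 kidney (red) and 12 liver (blue) libraries, ordered by time within a column, and a bar at the median. Medians for G6pc are 6.94 in kidney and 14.6 in liver, and those for Pdk4 17.5 and 15.5.

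Preference for the TS differed between the tissues in 7 of the 10 genes, and all 7 had the higher ratio in liver (of 20601 genes tested 56.8% were called, and 35.1% in that direction). G6pc differed most, at log2 -1.07 ± 0.15 for kidney over liver, or 2.11-fold higher in liver (adjusted p = 9.16e-08, edgeR), from summed reads with a TS to NTS ratio of 6.83 in kidney and 14.3 in liver. Fbp1 followed with -0.78 ± 0.11, then Ppargc1a with -0.63 ± 0.12 and Angptl4 with -0.49 ± 0.12. Irs2, Pck1 and Got1 had -0.43 ± 0.12, -0.38 ± 0.11 and -0.31 ± 0.10. The remaining 3 did not pass: Cpt1a -0.22 ± 0.11 (adjusted p = 0.0827), Pdk4 0.12 ± 0.13 and Ppara 0.07 ± 0.10. Cpt1a did pass without kidney ZT4 replicate 1 (adjusted p = 0.0402), ZT16 replicate 1 (0.0489) or ZT20 replicate 1 (0.0248). The median over all genes was -0.13 and moved to 0.04 with TMM over strand columns. On that scale G6pc, Fbp1, Ppargc1a and Angptl4 stayed higher in liver, Irs2 (adjusted p = 0.0505), Pck1 (0.0907) and Got1 (0.189) were not called, and Pdk4 (0.31, adjusted p = 0.0375) and Ppara (0.25, 0.0127) were called higher in kidney. The 6 genes called on that scale were thus split into 2 higher in kidney and 4 higher in liver, and of all genes called 53.0% were higher in kidney, beside 38.3% on the main scale.

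TS levels themselves also differed between kidney and liver. Over the 6 times 9 of 10 genes were called, where 73.9% of 19702 genes tested were. Fbp1, Ppara, Angptl4, G6pc, Pck1 and Cpt1a were higher in liver, and Ppargc1a, Got1 and Pdk4 in kidney; of all genes 31.7% were called higher in liver and 42.2% in kidney. Without liver ZT0 replicate 1, 8 of the 10 genes were called, beside 75.6% of all genes tested. The levels compared here are on a scale shared by the 24 libraries. The ratio of that scale to the scale of a single tissue varied between libraries of a tissue by at most 3.28%. A constant factor per tissue is not part of that figure, so levels given here differ from those given above for each tissue.

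Among the enzymes, Fbp1 had 2.19 ± 0.349 TS RPKM in kidney and 3.95 ± 0.485 in liver (SD, n = 12), a 1.81-fold difference (log2 -0.86 ± 0.06, SE). G6pc had 2.18 ± 0.275 and 3.39 ± 0.656, or 1.55-fold, and Pck1 4.32 ± 0.548 and 5.87 ± 1.32, or 1.36-fold. At all 6 times the liver mean of each of these 3 was the higher. Angptl4 was 1.57-fold higher in liver and Ppara 1.68-fold, again at all 6 times, and the lowest liver library of Ppara (2.72) lay above its highest kidney library (2.51). Cpt1a differed by only 1.07-fold (adjusted p = 0.0134, edgeR), and was not called with the replicate block (adjusted p = 0.229) or with the size of the whole library (0.194).

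Ppargc1a was the clearest gene in the other direction, with 1.38 ± 0.0845 in kidney and 0.862 ± 0.116 in liver, 1.60-fold higher in kidney (log2 0.68 ± 0.04, adjusted p = 7.69e-11, edgeR). Its lowest kidney library, 1.24, exceeded its highest liver library, 1.01. Got1 was 1.09-fold higher in kidney (adjusted p = 0.00167) and Pdk4 1.10-fold (adjusted p = 0.042). That of Pdk4 was lost without any of 17 of the 24 libraries, with adjusted p-values between 0.0574 and 0.18, and with DESeq2 size factors (0.213) or with no filter (0.0533). Irs2 did not pass (log2 0.05 ± 0.04, adjusted p = 0.181), although it did with the size of the whole library (0.11, adjusted p = 0.0136), where 4 of the 9 called genes were higher in kidney in place of 3. NTS levels were not tested between the tissues. On the NTS scale of each tissue, Ppargc1a averaged 0.902 RPKM in kidney and 0.395 in liver, and Ppara 1.31 and 2.56. Both had the direction seen on the TS. G6pc averaged 1.97 and 1.54 on the NTS, opposite to its TS.

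**Figure D4:**
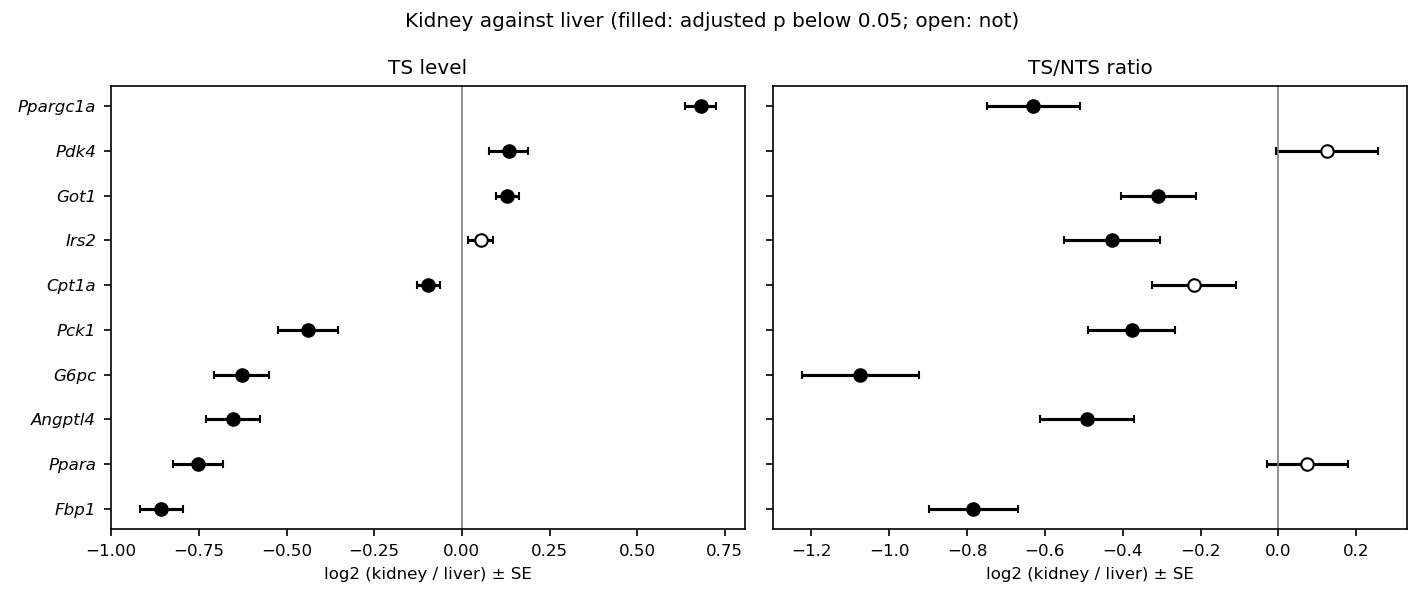
Log2 ratio of kidney to liver (horizontal axis, bars of 1 SE) of the TS level, left, and of the TS to NTS ratio, right, for the 10 genes in order of the left panel. Filled points passed an adjusted p of 0.05; Ppargc1a lies farthest right on the left, at 0.68, and at -0.63 on the right.

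The difference of rhythms between tissues was tested for each gene, and none of the 10 passed, where 0.939% of 19702 genes did. The size of a difference is the amplitude of the kidney cosine minus the liver cosine, so it holds phase as well as amplitude. The lowest adjusted p was 0.134 for Irs2 (edgeR), with a size of 0.17 ± 0.04, followed by Got1 (0.174) and Cpt1a (0.195). Of the 10, 5 had an unadjusted p under 0.05. The share of all genes under that unadjusted threshold is not given here, so the 5 have no background beside them. Angptl4 had the widest difference, 0.32 ± 0.10 (adjusted p = 0.282), and its own fitted amplitude was the larger in kidney. No other tool was run for this test. The replicate block left none called, while the count over all genes rose from 185 to 447.

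The 10 genes were set beside 4 further lists of their pathways. Of 22 other genes of gluconeogenesis and amino acid entry, 4 were called rhythmic on the TS in each tissue, a share of the list (18.2%) near the 15% of all genes called in kidney and 16.6% in liver. In kidney these were Slc25a10, the dicarboxylate carrier (0.15 ± 0.03, peak 6.29 h), Mdh2, mitochondrial malate dehydrogenase (0.19 ± 0.04, 5.88 h), Pgam1 (0.22 ± 0.05, 5.90 h) and Gpt2, mitochondrial alanine transaminase, with the opposite phase (0.22 ± 0.05, 20.4 h). In liver they were Fbp2, the muscle form of fructose bisphosphatase, with the largest swing (0.95 ± 0.14, 8.13 h), Eno1 (0.13 ± 0.03, 7.01 h), the citrate carrier Slc25a1 (0.17 ± 0.04, 8.12 h) and Mdh2 (0.16 ± 0.04, 7.60 h). Median amplitudes of this list, 0.126 in kidney and 0.123 in liver, lay below those of all genes.

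Of fatty acid oxidation and ketone body genes, 13 of 28 passed in kidney, 12 of them with a peak between 4 and 12 h, and in liver 8 of 28, all in that window. Of all genes 15% were called and 4.19% in that window in kidney, and 16.6% and 6.13% in liver. Cyp4a10, a fatty acid hydroxylase with uncertain reads since near-identical paralogues exist, led in kidney (0.33 ± 0.05, 8.40 h), ahead of the acyl-CoA dehydrogenases Acadm (0.15 ± 0.03, 6.91 h) and Acadl (0.15 ± 0.03, 6.63 h) and the carnitine carrier Slc25a20 (0.18 ± 0.04, 7.48 h). In liver Slc25a20 (0.20 ± 0.03, 8.36 h), Acadl (0.17 ± 0.03, 7.81 h), Cpt2 (0.16 ± 0.03, 8.62 h) and Hadha (0.12 ± 0.03, 8.56 h) had the lowest adjusted p-values.

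Of 30 hormone signalling and transcription genes tested, 6 were called in kidney, 2 with a peak between 4 and 12 h and 4 between 16 and 24 h, a window that held 10.5% of all genes as called (16.2% with the replicate block). In liver 11 were called, all between 4 and 12 h, where 6.13% of all genes were. The difference of rhythms between tissues was called in 2 of the 30, Lpin2 and Rxra, beside 0.939% of 19702 genes tested. The kidney genes with the lowest adjusted p were Lpin2 (0.15 ± 0.03, 19.0 h), Ppard (0.20 ± 0.04, 20.8 h), Hnf4a (0.19 ± 0.04, 5.55 h) and Rxra (0.17 ± 0.04, 20.5 h). The liver genes were Lpin1, a coactivator of PPARα (0.27 ± 0.03, 8.75 h), Klf15, a factor of amino acid breakdown (0.24 ± 0.03, 8.28 h), the kinase Sik1, which restrains CREB coactivators (0.29 ± 0.04, 8.08 h), and Foxo3 (0.17 ± 0.03, 9.07 h). Of 17 genes of glucose use in the fed state, 5 were called in kidney (29.4%, beside 15% of all genes), among them Slc2a2 (0.17 ± 0.03, 7.24 h), Pdha1 (0.20 ± 0.04, 7.14 h), Pdp2 (0.19 ± 0.05, 6.38 h) and Txnip, an inhibitor of glucose uptake (0.22 ± 0.06, 7.75 h). In liver 2 were called (11.8%, beside 16.6%), Txnip (0.37 ± 0.06, 8.82 h) and Pdp2 (0.22 ± 0.05, 9.19 h). Without liver ZT0 replicate 1 the liver counts were 5 of 22, 11 of 28, 12 of 30 and 5 of 17 in the order of these lists, beside 24.4% of all genes, and the liver genes named here stayed called. All these tests were edgeR's, with adjustment over all genes tested.

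**Figure D5:**
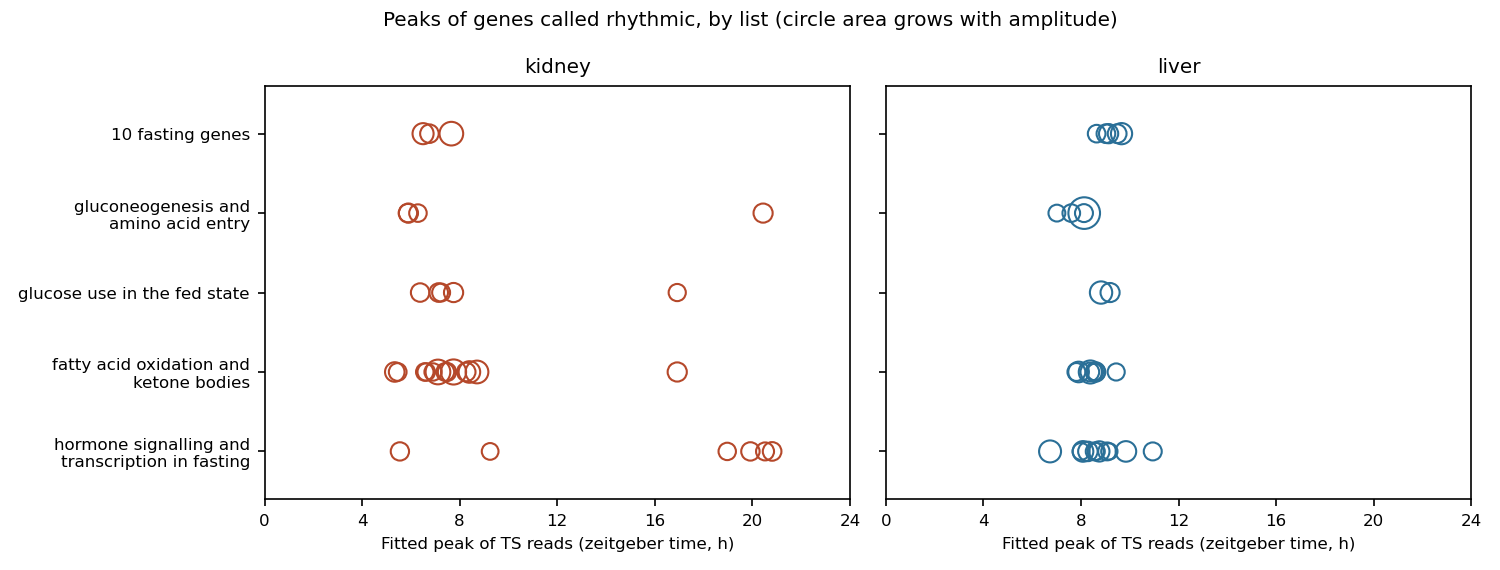
Fitted peak of TS reads (horizontal axis, hours of zeitgeber time) of each gene called rhythmic, for the 10 fasting genes and the 4 further lists (rows), in kidney (left) and liver (right). Each circle is a gene, its area growing with amplitude; liver circles all lie between 4 and 12 h, while kidney has 4 hormone and transcription genes between 16 and 24 h.

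Levels of TS repair were compared between the tissues for these lists too, where 73.9% of all genes were called, 31.7% higher in liver and 42.2% in kidney. Of gluconeogenesis and amino acid genes 19 of 22 were called, 11 higher in liver, led by Gls2 (9.94-fold), Sds (23.7-fold), Tat (62.9-fold, also a hepatocyte marker here) and Gpt2 (1.95-fold). For fed glucose use 14 of 17 were called, 9 of them higher in liver, with Gckr (18.4-fold) and Pfkfb1 (5.55-fold) in that direction and Pdk3 4.54-fold higher in kidney. Fatty acid oxidation had 19 of 28 called, 15 higher in liver, led by the fasting hormone Fgf21 (21.5-fold), Bdh1 (3.07-fold), Fabp1 (13.0-fold) and Creb3l3 (8.89-fold). Of hormone signalling and transcription genes 26 of 30 were called and 19 were higher in liver, among them Pparg (7.07-fold), the glucagon receptor Gcgr (3.10-fold) and Hnf4a (1.75-fold), while Lpl, the lipase that Angptl4 inhibits, was 4.73-fold higher in kidney.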

How the data were processed

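XR-seq reads of 12 kidney and 12 liver libraries were analysed from the tables that the authors deposited. There is 1 table per tissue, strand and replicate number and, per the file headers, it lists a read count and an RPKM for every gene entry at each time. All tests ran on the deposited count columns, which hold whole numbers; the deposited RPKM served only to work out library totals. A further set of kidney tables with the authors' downsampled counts served as an alternative. Per the submitters' processing notes the genome build was mm10; aligner and counter were not given in the sources used here. Per the labels' protocols, oligomers were captured with antibodies against TFIIH and then against a lesion; that protocol names lesions other than cisplatin adducts, while the design text names cisplatin.

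Of 25239 entries, 882 without a symbol (2.764% of TS reads) were left out, and a symbol in several entries took the one with most TS reads. The count test was edgeR 4.0.16 under R 4.3.3 with limma 3.58.1, run with TMM, filterByExpr, glmQLFit and glmQLFTest and adjusted by Benjamini-Hochberg at a threshold of 0.05. Rhythms were fitted as a 24 h cosine with free phase, and the standard error of an amplitude is that along the fitted peak. For strands, TS and NTS entered as separate columns with library as a blocking factor and a common library size. Tissues were compared over the 6 times, with interactions for rhythm and strand. RPKM values in the text are on the TMM scale of the counted strand. Deviations of libraries with the same replicate number were correlated over pairs of times: in kidney all 15 pairs exceeded 0.1 (0.134 to 0.383), so the numbers were taken to pair the samples there. The main kidney tests were nevertheless run without replicate number as a block. In kidney the blocked value is given where it changed a call of the 10 genes or moved a count over all genes by over 1.5 times. No blocked count is given for the further lists. The edgeR fits were tested on simulated counts. Alternatives included DESeq2 1.42.0.

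The genes and lists were chosen with earlier results of these data known. All 10 genes are named in every comparison, and from each further list up to 4 called genes with the smallest adjusted p per comparison. The list genes Mdh1, Cpt1b and Insr were not analysed here, and 1 named result of a further list is not reported here.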

Additional observations from a re-analysis of the deposited data

Results flagged for a closer look

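The difference between TS and NTS repair was itself different between kidney and liver in 7 of the 10 genes, by the interaction of tissue and strand in edgeR. Of all 20601 genes tested 56.8% were called, and 35.1% were called with the higher ratio in liver. As log2 of kidney over liver, the values were -0.38 for Pck1, -1.07 for G6pc, -0.78 for Fbp1, -0.49 for Angptl4, -0.63 for Ppargc1a, -0.43 for Irs2 and -0.31 for Got1, every one lower in kidney. For these genes, 1 scaling (TMM over strand columns) ended the calls of Pck1, Irs2 and Got1. That scaling also called Pdk4 (0.31, adjusted p = 0.0375, edgeR) and Ppara (0.25, adjusted p = 0.0127) higher in kidney.

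Rhythms of TS reads differed between the tissues in 3 genes of the further lists, by the interaction of tissue with the 24 h cosine. They were 1 of 22 genes of gluconeogenesis and amino acid entry and 2 of 30 of hormone signalling and transcription. None of 17 genes of fed glucose use and none of 28 of fatty acid oxidation was called. Of all 19702 genes tested 0.939% were called. Fbp2 (adjusted p = 0.00301) peaked at 8.13 h in liver and at 21.4 h in kidney, where its rhythm was not called. Lpin2 (adjusted p = 0.0167) peaked at 19.0 h in kidney and at 8.00 h in liver, where it was not called. Rxra (adjusted p = 0.0166), the partner of PPARα, was called in both, with peaks at 20.5 h in kidney and 9.16 h in liver. All 3 were also called without liver ZT0 replicate 1, with adjusted p-values of 0.00148, 0.0101 and 0.00661. Within a time the 2 libraries were not searched for outlying values.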

How the results depend on the processing

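Counts of calls changed with the test. A test for any difference among times, which spends more degrees of freedom on the same libraries, called 196 genes in kidney TS, 549 in liver TS, 17 in kidney NTS and 270 in liver NTS, and of the 10 genes 0, 1, 0 and 0. With the replicate block, 4899 genes were called in kidney TS, 1473 in kidney NTS, 3525 for the kidney TS/NTS rhythm (1 of the 10 genes), 1905 for that of liver and 447 for the tissue difference of rhythms. The block changed no other call of the 10 genes than those given in the report and that of Ppara in liver TS (adjusted p = 0.0484). In liver replicate numbers were not taken as pairs, with 6 of 15 correlations above 0.1 (-0.141 to 0.228, median 0.092). For kidney NTS, downsampled counts gave 228 genes, DESeq2 635, no filter 1171, the size of the whole library 216, and the length trend with the replicate block, chosen after the data were seen, 1558. For the kidney TS/NTS rhythm, no filter gave 502 and TMM over strand columns 662. For liver NTS, no filter gave 1156 genes and 1 of the 10, Pck1 (adjusted p = 0.047), and the size of the whole library called Ppara (0.0246). With DESeq2 size factors the tissue difference of Irs2 was -0.00049 in log2, of opposite sign and not called.

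Leaving out 1 library at a time, genes called ranged from 1089 to 4002 in kidney TS, 1747 to 4552 in liver TS, 79 to 1052 in kidney NTS, 390 to 1045 in liver NTS, 43 to 2720 and 499 to 1523 for the TS/NTS rhythm of kidney and liver, and 111 to 401 for the tissue difference of rhythms. Of the 10 genes, 2 to 4 were called in kidney TS, 4 to 9 in liver TS, 0 to 1 in kidney NTS and 0 to 1 in liver NTS. The lowest kidney TS count came without ZT8 replicate 2 and the highest liver TS count without ZT0 replicate 1. DESeq2 called 4 of the 10 genes in kidney TS and 7 in liver TS, beside 20.3% and 21.5% of all genes. Apart from the tests named, the cause of these changes was not tested. NTS reads as few as 12 in a library (G6pc, liver) limit what can be seen of NTS rhythms.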
